A study of Mus musculus with 4 samples.

Results

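The IL-1 and IL-18 receptor family was described in mouse T helper 17 (Th17) cells through 10 genes of the 50600 in the count tables. They were taken by symbol as the receptor genes Il1r1, Il1r2, Il1rap, Il1rl1, Il1rl2, Il18r1, Il18rap and Sigirr, the receptor antagonist Il1rn and the ligand Il1a. RNA sequencing was done on 4 libraries, numbered as biological replicates 1 to 4, of primary Th17 cells from the mouse strain C57BL/6NJ, differentiated from CD4 T cells per the linked protocol. The molecule is labelled total RNA, whereas the linked library protocol is for poly(A)-tailed RNA. All carry the same donor label, with sex marked as not collected and age as unknown. There is only 1 group and no treatment or genotype contrast, so the comparisons set genes side by side within each library and libraries against each other. Separate animals, separate cultures and pooled animals cannot be told apart from these labels. The p-values of tests between libraries therefore measure the spread between these libraries only, part of which may be technical. Those of the gene pairs rest on ratios within each library, and they too hold for these libraries only.

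IL-1 alpha and IL-1 beta bind the receptor IL1R1, which then recruits the accessory protein IL1RAP. The joined intracellular TIR domains recruit MyD88 and the IRAK kinases, and the signal passes through TRAF6 and TAK1 to NF-kappaB. The antagonist IL1RN occupies IL1R1 without recruiting the accessory protein, IL1R2 binds IL-1 but lacks a signalling domain, and SIGIRR is an inhibitory member of the family. IL1RAP also serves the IL-33 receptor (ST2, encoded by Il1rl1) and the IL-36 receptor (Il1rl2), whereas IL-18 binds a receptor of its own made of IL18R1 and IL18RAP. IL-1 is known to promote the differentiation and cytokine production of Th17 cells through IL1R1.

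Library totals ranged from 28555677 to 58104663 fragment counts, and the biological coefficient of variation (the spread of a gene between libraries beyond counting error) was 0.0535. The Th17 label was checked against marker genes. All 8 Th17 markers were at 1 TPM (counts per exon length, scaled to a common library sum) or more in every library, with a summed level of 17294 to 18010 TPM, and so were 7 of 7 CD4 T cell markers. Xist, the RNA that coats a silenced X chromosome, was high in replicates 1 and 2 (132 and 131 TPM) and low in replicates 3 and 4 (0.329 and 0.496 TPM), so the libraries divide into pairs by this gene. The Y-linked genes Uty (0.0838, 0.0553, 7.80 and 8.03 TPM in replicates 1 to 4) and Kdm5d (0.0541, 0.0595, 7.33 and 7.16 TPM) divide them in the opposite direction. By these levels the libraries did not all come from animals of the same sex, whatever the shared donor label. Depth gave the same pairs, with 28555677 and 36998648 counts in replicates 1 and 2 and 58104663 and 42896684 in replicates 3 and 4. So did the mitochondrial share of counts, at 0.778% and 0.868% against 1.18% and 0.970%. For any other gene that divides the libraries into these pairs, sex, depth and mitochondrial share therefore cannot be told apart.

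Several members are best known from other cells, so the markers of those cells are given with the levels below. Of 10 macrophage and monocyte markers, 1 (Cd68, 6.46 ± 0.574 TPM, SD, n = 4) was at 1 TPM or more in every library, while Lyz2, C1qa, C1qb and Fcgr1 had 0 counts throughout, and the list summed to 7.47 to 8.86 TPM. None of 10 neutrophil markers passed (7 at 0 counts, including S100a8 and S100a9; sum 0.383 to 0.749 TPM). None of 9 mast cell and basophil markers passed (5 at 0 counts, including Fcer1a and Cpa3; sum 0.784 to 1.16 TPM). Dendritic cell markers passed in 1 of 8 cases (sum 2.89 to 3.96 TPM), and none of 6 epithelial markers passed (sum 0.979 to 1.46 TPM). Markers of type 2 helper and innate lymphoid cells passed in 2 of 6 cases (sum 4.22 to 6.00 TPM), and markers of regulatory T cells in 4 of 5 (sum 20.6 to 26.6 TPM). Th1 cells, in which the IL-18 receptor is well known, gave the highest sum of the lists for other cells, 44.1 to 54.6 TPM, with 3 of 4 markers passing. These were Cxcr3 (24.6 ± 3.97 TPM, SD, n = 4), Il12rb2 (14.1 ± 1.63 TPM) and Tbx21 (10.9 ± 1.36 TPM), while Ifng had 0 to 2 counts a library. NK cells share that receptor, and none of their 6 markers passed (3 at 0 counts, including Ncr1; sum 0.285 to 0.502 TPM). None of 6 B cell markers (sum 1.44 to 1.91 TPM) and none of 8 endothelial and stromal markers (sum 0.131 to 0.338 TPM) passed. In bulk RNA, fewer cells that express a gene and less RNA per cell cannot be told apart.

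In TPM, the family was led by an antagonist and a signalling receptor. Il1rn, Il1r1, Sigirr and Il1a gave 89.2 ± 1.14% of the summed level of the 10 members, which was 235.9 ± 16.7 TPM (SD, n = 4). At the threshold of 1 TPM in every library, 9 of 10 members were detected, beside 47.0% of 21764 protein-coding genes. The exception was Il1rl1. At 0.5 TPM in every library the count was again 9, beside 49.2% of protein-coding genes, and at 5 TPM it was 6, beside 40.5%. In order of mean level the genes were Il1rn, Il1r1, Sigirr, Il1a, Il18rap, Il1rap, Il1rl2, Il18r1, Il1r2 and Il1rl1. Neighbours in that order did not overlap over the 4 libraries, except Sigirr and Il1a, which kept this order in 3 of 4.

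**Figure D1:**
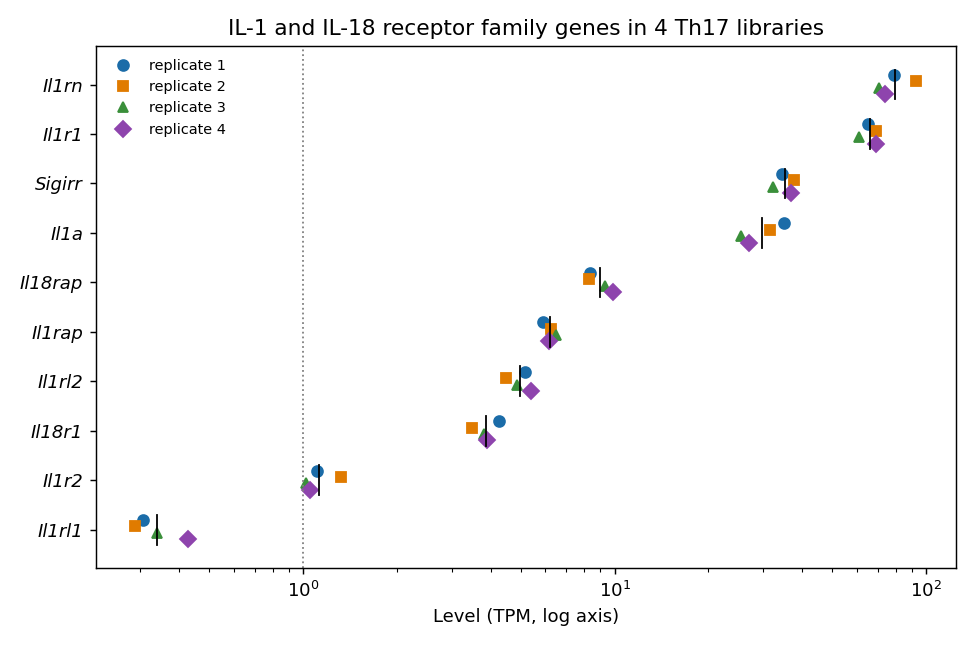
Level of each member in each of the 4 libraries, in TPM on a log axis. Genes are ordered by mean level, points are libraries, the short line is the mean and the dotted line is 1 TPM. Il1rn and Il1r1 stand highest at means of 79.3 and 66.1 TPM, the points of Sigirr and Il1a overlap, and Il1rl1 is lowest at 0.340 TPM.

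Il1a, which encodes IL-1 alpha, was read at 35.0, 31.6, 25.5 and 27.0 TPM in replicates 1 to 4 (29.8 ± 4.35 TPM, SD, n = 4; 590, 691, 879 and 691 counts). Replicates 1 and 2 were above replicates 3 and 4 without overlap, which is the division seen for Xist. How many of all genes divide this way was not counted, and over 4 libraries many can. The negative binomial deviance test in edgeR, which allows for the usual spread between libraries, did not call Il1a (adjusted p = 0.31). Among markers of myeloid cells, which are known sources of IL-1 alpha, Csf1r and Itgax divided in the same direction as Il1a at low level. Csf1r of macrophages was at 0.839, 0.702, 0.492 and 0.285 TPM and Itgax of dendritic cells at 0.878, 0.977, 0.464 and 0.434 TPM in replicates 1 to 4, on 18 to 52 counts a library. For Cd68, Ccr2 and H2-Ab1, the other tested markers of these lists, no difference between libraries beyond counting error was detected. Their adjusted p was 0.50, 0.67 and 0.99 (Poisson deviance in edgeR). Of the macrophage list as a whole, 4 defining markers were at 0 counts, as given above. The part of the Xist division and of the myeloid markers in the level of Il1a was not tested. Of protein-coding genes, 75.9% had a lower mean level. The gene (ENSMUSG00000027399.1) lies on the minus strand of chromosome 2 from 129299610 to 129309972 in mm10. Il1b, which encodes IL-1 beta, lies on the same strand from 129364570 to 129371139 and had 0 counts in every library. A count of 0 allows up to 3 counts, which is 0.0900 to 0.184 TPM across libraries, and covers counting error only. Against this limit Il1a was at least 190- to 283-fold higher within the libraries.

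The other ligands and soluble inhibitors of the family were at or near 0. Of 9 such genes in the files, 1 was at 1 TPM or more in every library. That gene was Il18bp, the soluble binding protein of IL-18, at 2.57 ± 0.493 TPM (SD, n = 4). Another 6 genes were at 0 counts in every library, namely Il1b and the genes Il1f5, Il1f6, Il1f8, Il1f9 and Il1f10 of the IL-36 and IL-38 branch. Il18 had 5, 1, 7 and 0 counts and Il33 had 0, 0, 4 and 2 counts in replicates 1 to 4. Of the ligands listed, Il1a was thus the only one above 1 TPM in any library.

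Il1rn, the IL-1 receptor antagonist, had the highest mean of the family. It was read at 79.2, 93.2, 70.9 and 74.1 TPM in replicates 1 to 4 (79.3 ± 9.83 TPM, SD, n = 4; 3739, 5712, 6860 and 5309 counts). Replicate 2 was the highest and replicate 3 the lowest. Of protein-coding genes, 88.4% had a lower mean. Il1rn (ENSMUSG00000026981.15) lies on the plus strand of chromosome 2 from 24336853 to 24351494. It is known to encode secreted and intracellular forms that start at alternative first exons, and the counts per gene do not separate them.

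Il1rn exceeded Il1a in 4 of 4 libraries. The log2 ratio of TPM, with a pseudocount of 0.1 TPM, was 1.17, 1.56, 1.47 and 1.45 in replicates 1 to 4 (1.41 ± 0.17, SD, n = 4), a 2.66-fold difference. With the longest protein-coding transcripts as length it was 5.95-fold, and in CPM (counts scaled to the library total, without length) 7.45-fold. The ratio was lowest in replicate 1, where Il1a was highest. The exact two-sided sign-flip test gave p = 0.125, and 0.125 after adjustment over 8 pairs. That is the smallest p that 4 libraries allow (2 of 16 sign patterns), so no pair could reach 0.05, and the same value holds for each of the 8 pairs, which all kept their direction in 4 of 4 libraries.

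Il1r1, the signalling receptor of IL-1, was read at 65.0, 69.3, 60.9 and 69.0 TPM in replicates 1 to 4 (66.1 ± 3.96 TPM, SD, n = 4; 3531, 4888, 6776 and 5681 counts). Replicate 3 was the lowest. The gene (ENSMUSG00000026072.12) spans 40225080 to 40317257 on the plus strand of chromosome 1, and 86.2% of protein-coding genes had a lower mean. Among 45 cytokine receptor genes, the 8 of the family included, Il1r1 ranked 11. The 4 highest were Il2ra (1538 ± 29.4 TPM), Il2rb (967 ± 41.1 TPM) and Il2rg (295 ± 8.69 TPM), the subunits of the IL-2 receptor, and Il4ra (227 ± 9.47 TPM), the IL-4 receptor. Il1r1 exceeded Il23r, the receptor of IL-23 on Th17 cells, in 4 of 4 libraries by a log2 ratio of 1.05 ± 0.04 (SD, n = 4), or 2.07-fold.

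Il1rap, the accessory chain that IL1R1, ST2 and the IL-36 receptor share, was far below Il1r1. It was read at 5.89, 6.23, 6.49 and 6.17 TPM (6.20 ± 0.248 TPM, SD, n = 4; 571, 784, 1290 and 907 counts), and replicate 1 was the lowest. The log2 ratio of Il1r1 to Il1rap was 3.44, 3.46, 3.21 and 3.46 in replicates 1 to 4 (3.39 ± 0.12), a 10.5-fold difference. The ratio in replicate 3, where Il1r1 was lowest and Il1rap highest, stood apart from the other libraries. For Il1rap itself no difference between libraries beyond counting error was detected (Poisson deviance in edgeR, adjusted p = 0.246). The size of this gap rests on the length assigned to Il1rap, whose exons sum to 11360 bases while its longest protein-coding transcript has 4520. With the lengths of the longest protein-coding transcripts the difference was 4.60-fold, and in CPM it was 5.94-fold. Il1rap (ENSMUSG00000022514.14) is on the plus strand of chromosome 16 from 26581704 to 26730117. It encodes membrane and soluble forms, which the counts do not separate.

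Among the negative regulators of the receptor, Sigirr was high and Il1r2 low. Sigirr was read at 34.4, 37.7, 32.2 and 36.8 TPM (35.3 ± 2.47 TPM, SD, n = 4; 894, 1271, 1714 and 1449 counts), highest in replicate 2 and lowest in replicate 3, the library in which Il1r1 was also lowest. It ranked 14 of the 45 cytokine receptors. Its ratio to Il1r1 varied least of the 8 pairs, with a log2 ratio of Il1r1 to Sigirr of 0.92, 0.88, 0.92 and 0.91 (0.90 ± 0.02, SD, n = 4), or 1.87-fold. With lengths of the longest protein-coding transcripts it was 1.34-fold. Sigirr (ENSMUSG00000025494.8) lies on the minus strand of chromosome 7 from 141091175 to 141100572.

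Il1r2, the decoy receptor that binds IL-1 without signalling, was read at 1.11, 1.32, 1.02 and 1.05 TPM (1.13 ± 0.137 TPM, SD, n = 4). These values rest on 18, 28, 34 and 26 counts, and no difference between libraries beyond counting error was detected (Poisson deviance in edgeR, adjusted p = 0.827). Il1r1 exceeded Il1r2 by a log2 ratio of 5.76 ± 0.12 (SD, n = 4), or 54.2-fold. A pseudocount of 1 TPM lowered this to 31.6-fold, since Il1r2 itself is near 1 TPM. The decoy was detected just above the threshold, and 52.5% of protein-coding genes had a lower mean. Its place above Il1rl1 rests on exon length, 1908 bases against 6894. In counts over all libraries Il1r2 had 106 and Il1rl1 had 119.

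**Figure D2:**
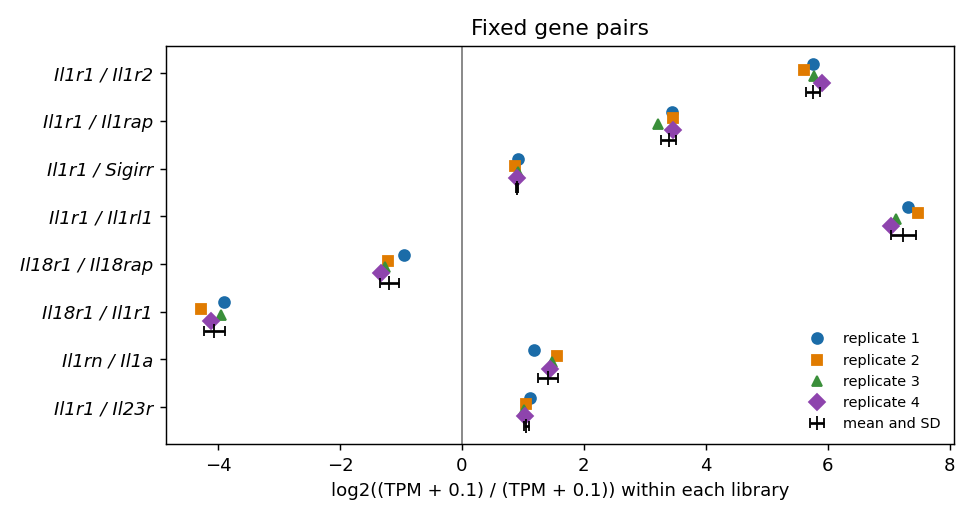
Log2 ratio of TPM (pseudocount 0.1) for the 8 gene pairs, with a point for each of the 4 libraries and a line at the mean. A value above 0 means that the first gene is higher. All 4 points of each pair lie on 1 side of 0, from a mean of 7.24 for Il1r1 against Il1rl1 to -4.06 for Il18r1 against Il1r1.

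Both chains of the IL-18 receptor were present at low level, with the accessory chain above the binding chain. Il18rap was read at 8.36, 8.25, 9.30 and 9.90 TPM (8.95 ± 0.787 TPM, SD, n = 4; 482, 617, 1098 and 865 counts). Replicates 3 and 4 were above replicates 1 and 2 without overlap, again the division seen for Xist. The negative binomial deviance test in edgeR did not call Il18rap (unadjusted p = 0.0967). Neither the part of the Xist division in this level nor that of the Th1 markers was tested. Of these markers, Cxcr3, Il12rb2 and Tbx21 differed between libraries beyond counting error. Their adjusted p was 1.99e-07, 6.97e-05 and 0.0103 (Poisson deviance in edgeR). This test called 36.6% of all genes at an adjusted p under 0.05. Their values were not set against Il18rap by library. Il18r1, the ligand-binding chain, was read at 4.26, 3.49, 3.82 and 3.90 TPM (3.87 ± 0.316 TPM, SD, n = 4; 175, 186, 322 and 243 counts), highest in replicate 1 and lowest in replicate 2. The log2 ratio of Il18r1 to Il18rap was -0.96, -1.22, -1.26 and -1.32 in replicates 1 to 4 (-1.19 ± 0.16), which puts Il18rap 2.28-fold higher in 4 of 4 libraries. Il18r1 was 16.7-fold below Il1r1 (log2 ratio -4.06 ± 0.17, SD, n = 4). Between libraries, no difference in Il18r1 beyond counting error was detected (Poisson deviance in edgeR, adjusted p = 0.444).

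The receptors of IL-36 and IL-33 differed from each other in level. Il1rl2, the IL-36 receptor, was read at 5.16, 4.49, 4.86 and 5.40 TPM (4.98 ± 0.392 TPM, SD, n = 4; 300, 339, 579 and 476 counts), highest in replicate 4. Between libraries, no difference in Il1rl2 beyond counting error was detected (Poisson deviance in edgeR, adjusted p = 0.112). Il1rl1, which encodes the IL-33 receptor ST2 in membrane and soluble forms that the counts do not separate, was read at 0.306, 0.288, 0.340 and 0.426 TPM (0.340 ± 0.0612 TPM, SD, n = 4). Its 18, 22, 41 and 38 counts put replicates 3 and 4 above replicates 1 and 2 in TPM, but no difference beyond counting error was detected at this depth (Poisson deviance in edgeR, adjusted p = 0.533). Il1r1 exceeded Il1rl1 by a log2 ratio of 7.24 ± 0.20 (SD, n = 4), or 151-fold, and with a pseudocount of 1 TPM by 50.0-fold. Gata3, a transcription factor of the type 2 cells in which ST2 is well known, was at 2.34 ± 0.389 TPM (SD, n = 4).

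The length used for each gene moved some levels more than the libraries did. With the longest protein-coding transcript in place of all exons, Il1rn was at 129 TPM and Il1r1 at 52.5 TPM, Sigirr at 39.2 TPM and Il1a at 21.6 TPM. Il1rap then stood at 11.3 TPM, above Il18rap at 8.98 TPM, which turns the order of these genes. The order of the others stayed, and no neighbours overlapped. In CPM, with no length at all, Il1r1 was 170-fold above Il1r2, 3.91-fold above Sigirr and 5.30-fold above Il23r. Mean log2 CPM put Il1rap (4.40) above Il18rap (4.18) and both above Il1a (4.14). It also put Il1rl1 (-0.425) above Il1r2 (-0.535). Il1rn (7.04) stayed above Il1r1 (6.98), though in replicate 4 Il1r1 had more counts (5681 against 5309). These differences were not tested.

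A group of 6 members lies side by side on chromosome 1, all on the plus strand, in the order Il1r2, Il1r1, Il1rl2, Il1rl1, Il18r1 and Il18rap. The stretch runs from 40074079 to 40551705 in mm10 (477.6 kb) and holds 4 other annotated genes, none of them protein-coding. Il1r2 (ENSMUSG00000026073.13) ends at 40125231 and Il1rl2 (ENSMUSG00000070942.8) runs from 40324610 to 40367562. Il1rl1 (ENSMUSG00000026069.15) runs from 40429570 to 40465415, Il18r1 (ENSMUSG00000026070.15) from 40465552 to 40500854 and Il18rap (ENSMUSG00000026068.11) from 40515362 to the end of the stretch. Their mean levels along the chromosome were 1.13, 66.1, 4.98, 0.340, 3.87 and 8.95 TPM, so the highest and the lowest are separated by a single member. Il1rl1 ends 136 bases before Il18r1 begins, and Il18r1 was the higher of the pair in 4 of 4 libraries. The protein-coding neighbours outside were Map4k4, a kinase, at 128 ± 1.49 TPM (SD, n = 4) and Slc9a4, a sodium-proton exchanger, at 0 counts in every library. Of the 4 genes inside, Gm38070 had 6 to 13 counts, Gm17970 had 0 to 8, Gm16894 had 1 count in all and Gm37347 had 0.

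**Figure D3:**
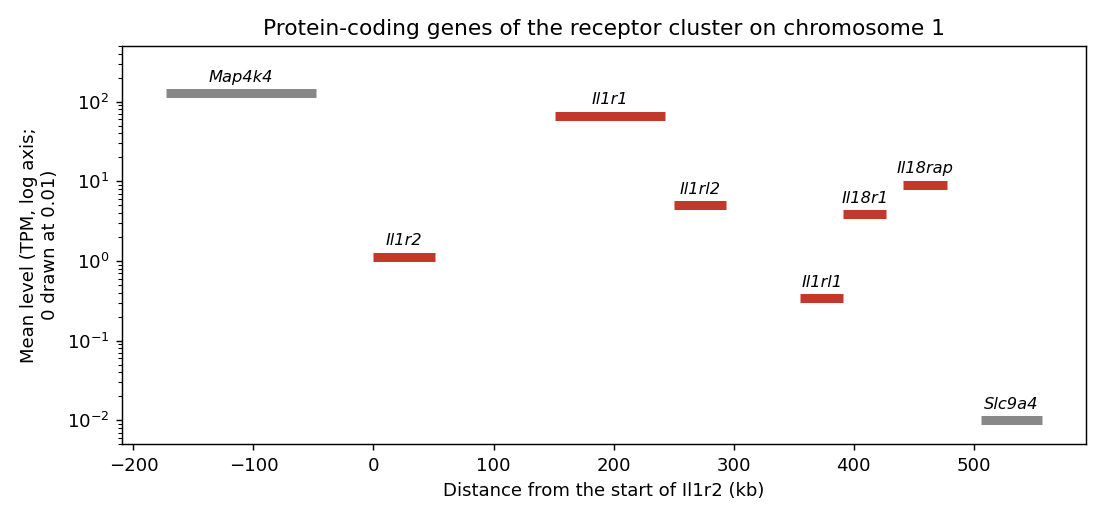
Mean level in TPM (log axis) of the genes on chromosome 1 against distance in kb from the start of Il1r2. Bars span each gene, and Slc9a4, with 0 counts, is drawn at 0.01. Il1r1 at 66.1 TPM stands above its neighbours Il1r2 at 1.13 and Il1rl2 at 4.98 TPM.

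No member shares exon bases with another gene on its own strand. Il1rap shares 552 exon bases with the antisense gene Gm20319 (0, 0, 0 and 1 counts), and Il1a shares 222 with Gm14023 on the opposite strand (15, 22, 34 and 20 counts). The counting used strand, so these partners were counted apart from the members. Of all windows of 100 bases in the transcripts of a member (GENCODE M21), 3.08% for Il1rap and 6.72% for Il1a also occur in transcripts of another gene on either strand, and 0% do for the other 8 members.

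The windows before the starts of the 3 members in which the levels were highest among those with an entry are given as sequence, because the counts of a gene sum the transcripts from all its starts. The RefSeq promoter table (GRCm38.p6, the mm10 build) has entries for 9 of 10 members (all but Sigirr), with 15 windows, and each window printed holds the 250 bases before a start, 5′ to 3′ on the strand of the gene. Capitals mark the matches to the motifs searched, which were AP-1 (TGANTCA), STAT (TTCNNNGAA) and ROR (AGGTCA) on both strands and the TATA box (TATAAA) on the given strand. Il1rn is shown for its first start (chr2:24336610-24336859, plus strand) and its second start (chr2:24345041-24345290, plus strand), which lies 8431 bases further on. Il1r1 is shown for its first start (chr1:40224830-40225079, plus strand) and Il1a for its only listed start (chr2:129309973-129310222, minus strand).
Il1rn first start: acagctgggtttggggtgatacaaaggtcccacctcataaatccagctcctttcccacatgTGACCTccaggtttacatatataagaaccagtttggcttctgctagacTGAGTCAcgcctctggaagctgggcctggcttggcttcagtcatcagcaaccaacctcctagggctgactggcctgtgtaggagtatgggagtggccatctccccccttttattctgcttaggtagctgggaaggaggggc
Il1rn second start: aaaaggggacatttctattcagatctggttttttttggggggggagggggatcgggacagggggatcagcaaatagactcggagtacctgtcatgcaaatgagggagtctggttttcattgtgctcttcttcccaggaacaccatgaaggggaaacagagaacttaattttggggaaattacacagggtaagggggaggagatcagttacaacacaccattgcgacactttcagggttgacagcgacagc
Il1r1 first start: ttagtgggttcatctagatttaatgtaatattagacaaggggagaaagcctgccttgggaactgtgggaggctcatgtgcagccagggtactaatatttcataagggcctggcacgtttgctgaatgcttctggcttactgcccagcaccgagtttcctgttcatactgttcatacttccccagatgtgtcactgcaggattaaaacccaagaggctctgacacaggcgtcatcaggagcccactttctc
Il1a start: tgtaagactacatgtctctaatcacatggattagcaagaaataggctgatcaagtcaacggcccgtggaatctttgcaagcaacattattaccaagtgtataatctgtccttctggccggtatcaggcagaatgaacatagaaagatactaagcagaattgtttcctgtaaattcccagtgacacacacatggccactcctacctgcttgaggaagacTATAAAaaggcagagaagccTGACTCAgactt
The first Il1rn window holds the AP-1 letters TGAGTCA at -141 from the start and the ROR letters on the reverse strand, read here as TGACCT, at -189. Its second window holds none of the motifs, and neither does the Il1r1 window. The Il1a window holds TATAAA at -32 and the AP-1 letters TGACTCA at -12. Over all 32817 windows of this length in the table, 6.75% hold the AP-1 letters, 7.01% the STAT letters, 14.0% the ROR letters and 7.60% the TATA letters. Elsewhere in the family, STAT letters stand at -111 of Il1r2 and at -219 and -152 of the third Il18r1 start, and ROR letters at -185 of the second Il1rl1 start. A match describes the letters and is not a measured binding site.

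The intracellular chain that the receptors feed was present in these cells. Of 19 genes of MyD88 and IRAK signalling, 17 were at 1 TPM or more in every library, with a median of 30.9 TPM. Myd88, the adaptor of the receptors, was at 159 ± 7.03 TPM (SD, n = 4), the kinase TAK1 (Map3k7) at 128 ± 3.58 TPM, the ubiquitin ligase Traf6 at 107 ± 5.69 TPM and the TAK1-binding Tab2 at 95.1 ± 1.00 TPM. All 12 NF-kappaB and feedback genes passed, with a median of 66.9 TPM. They were led by the inhibitor Nfkbia (716 ± 34.6 TPM) and the subunits Nfkb2 (372 ± 16.9 TPM), Nfkb1 (164 ± 3.54 TPM) and Rela (142 ± 3.13 TPM). The median over the 10 members was 7.57 TPM. These intracellular genes also serve other receptors.

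Genes that process IL-1 family ligands were partly present. Of 8 such genes, 5 were at 1 TPM or more in every library. The DNA sensor Aim2 was at 32.9 ± 2.02 TPM (SD, n = 4), the inflammasome adaptor Pycard at 30.4 ± 2.09 TPM, the pore-forming Gsdmd at 16.3 ± 1.97 TPM and the protease Casp1 at 11.7 ± 0.905 TPM. Toll-like receptors, which use the same adaptor, passed in 3 of 12 cases, namely Tlr1 (4.41 ± 0.528 TPM), Tlr7 (4.20 ± 0.680 TPM) and Tlr2 (3.46 ± 0.439 TPM). The next, Tlr6, was at 0.306 ± 0.0738 TPM, and Tlr3, Tlr8 and Tlr11 had 0 counts in every library. The brain-type relatives Il1rapl1 and Il1rapl2 had 0 counts in every library. Of the 37 other cytokine receptors, 27 passed, and Csf2rb and Il22ra1 had 0 counts throughout.

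**Figure D4:**
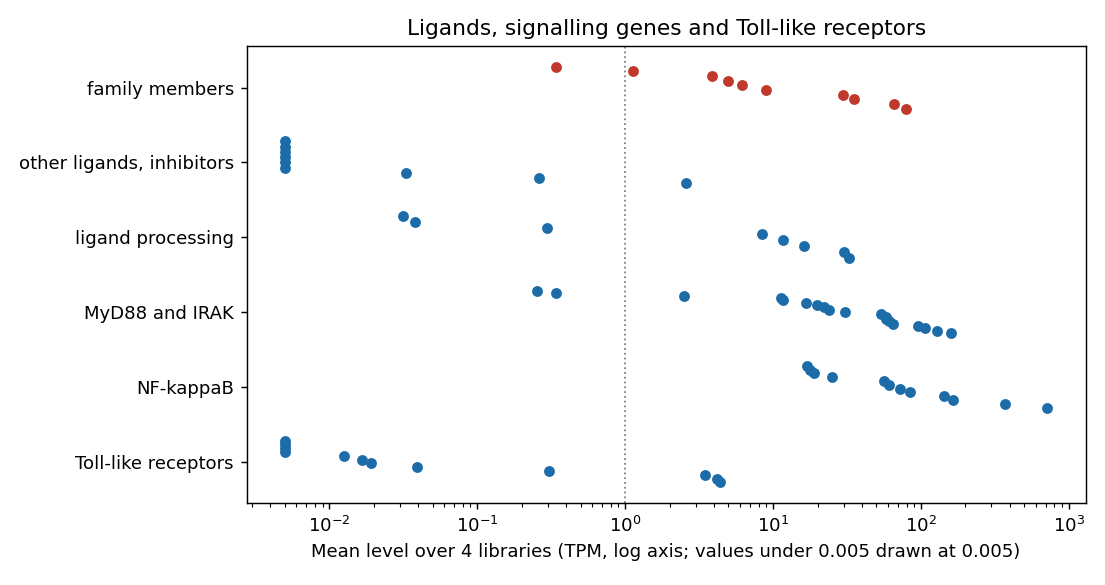
Mean level over 4 libraries in TPM (log axis, values under 0.005 drawn at 0.005) of the 10 members and of the genes of each list, with a point for each gene. The NF-kappaB and the MyD88 lists centre at medians of 66.9 and 30.9 TPM, most Toll-like receptors and other ligands lie under 1 TPM, and the members reach from 0.340 to 79.3 TPM.

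The family was then compared between libraries. All 10 members passed the filter on low counts, which left 12434 genes. The main rule for a variable gene asked, in edgeR, for a Poisson deviance (chi-square with 3 degrees of freedom) at an adjusted p under 0.05 (Benjamini-Hochberg) and for a top CPM 2 or more times its lowest CPM. By this rule 0 of 10 members were called, beside 1.74% of all genes tested (216). At an unadjusted Poisson p under 0.05 and no ratio, 5 members passed, beside 46.5% of genes, and at an unadjusted p under 0.05 of a negative binomial deviance, which allows for the usual spread between libraries, 3 passed, beside 4.48%. With the 2-fold ratio, the negative binomial test called 0 members, beside 0.145% of genes (18).

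Without the ratio, the negative binomial test called 1 member, Il1rn, beside 0.523% of genes (65). Its adjusted p in edgeR was 0.000118, with a highest level 1.31 times the lowest. Relative to its own mean, the log2 CPM of Il1rn shifted by -0.01, 0.24, -0.15 and -0.08 in replicates 1 to 4, so that replicate 2 was high. Without replicate 2 the ratio was 1.10 and the adjusted p of the same test was 1.00. Under the other alternatives of scaling, dispersion, filter and left-out library, its adjusted p lay between 0.000101 and 0.0281. The SD of log2 CPM was larger than that of Il1rn in 20.3% of the genes tested.

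The remaining members differed less from the usual spread. By the Poisson test without the ratio, Il1rn, Il1r1, Il18rap, Sigirr and Il1a were called, beside 36.6% of all genes (4550). These are the 5 members with the highest mean TPM. Il1a had a highest level 1.35 times its lowest and an adjusted p of 0.31 in the negative binomial test of edgeR, with shifts of 0.23, 0.10, -0.21 and -0.12 in replicates 1 to 4. Il1r1 had shifts of -0.04, 0.07, -0.11 and 0.07 and an adjusted p of 0.932 in that test. The median SD of log2 CPM was 0.125 over the members and 0.0696 over all genes tested, and it includes the low counts of Il1r2 and Il1rl1. None of the tested genes of the ligand, processing, MyD88, NF-kappaB, Toll-like receptor and other receptor lists was called by the main rule or by the negative binomial test. Of the marker lists, the main rule called Csf1r (ratio of highest to lowest CPM 2.85, adjusted Poisson p in edgeR 0.0031), Itgax (2.21, 0.0011) and Itgae (2.06, 0.025), and the negative binomial test called none.

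**Figure D5:**
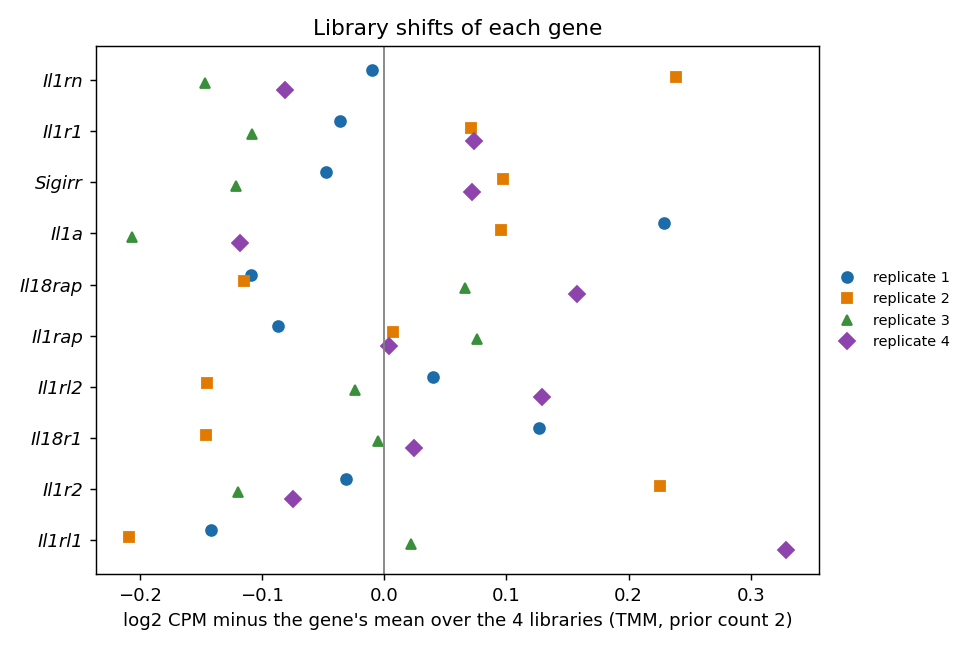
Shift of each member in each library, as log2 CPM minus the mean of the gene over the 4 libraries (prior count 2). Il1rn reaches 0.24 in replicate 2, Il1a lies between 0.23 in replicate 1 and -0.21 in replicate 3, and the widest range is that of Il1rl1, which rests on 18 to 41 counts.

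The genes whose shifts were nearest to those of Il1rn among 12433 tested genes were Arhgef10l, with a root mean square difference of 0.00868 on the log2 scale over 4 libraries, Vax2 (0.0188) and the member Il1r2 (0.0189). Il1r2 shifted by -0.03, 0.23, -0.12 and -0.07, but it rests on 18 to 34 counts. This likeness is a description over 4 libraries, in which many genes can share a pattern.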

How the data were processed

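Per the file headers, the authors deposited raw counts of fragments per gene from featureCounts 1.4.6-p4 on paired reads, with both ends mapped, the reverse-stranded option 2 and GENCODE M13 gene models, and per the labels in build mm10. An aligner appears only in alignment names and was not given in the sources used here otherwise. Output names carry 48 hours, a time absent from the labels. Exon length is given in the deposited tables too, from which TPM was computed here. Symbols came from GENCODE M21, the same build (50376 of 50600 identifiers matched).

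The 10 members, the lists and the pairs were chosen with earlier results of these data known. Levels are means with SD over 4 libraries. Detection meant at least 1 TPM in each library, and depth sets a floor of 3 counts for a count of 0. Pairs were tested by exact sign flips (two-sided), Benjamini-Hochberg adjusted over 8. Variation was tested with edgeR 4.0.16 in R 4.3.3 (TMM, default filter, prior count 0.5), against DESeq2 1.42.0 as an alternative. The tests were also run on counts simulated at the fitted negative binomial dispersion. Such counts cannot show how the calls hold where the real spread differs from that fit. All members are named, and of each family, pathway and receptor list (the rule does not cover the cell type markers) the 4 genes with the highest mean, those called variable, up to 5 genes at 0 counts, the neighbours on chromosome 1 and the 3 genes nearest in shift to the member with the smallest negative binomial p. Gm20319, Gm14023, the cell type markers Gata3, Cxcr3, Il12rb2, Tbx21, Ifng, Ncr1, Csf1r, Itgax, Itgae, Cd68, Lyz2, C1qa, C1qb, Fcgr1, S100a8, S100a9, Fcer1a, Cpa3, the 6th ligand at 0 counts, Xist, Uty and Kdm5d were named after their values were seen. The markers Ccr2 and H2-Ab1 were also named after their values were seen. Alternatives were other pseudocounts, CPM, transcript lengths, thresholds, scalings, filters and each replicate left out.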

Additional observations from a re-analysis of the deposited data

Results flagged for a closer look

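Of 44 sets of 4 values tested for a library that stands apart from the others (Dixon's test at the 95% level), 2 passed, and chance alone passes about 1 in 20. The log2 ratio of Il1r1 to Il1rap was 3.21 in replicate 3, against 3.44, 3.46 and 3.46 in the other libraries. Il2rg, the shared gamma chain of the IL-2 receptor and other cytokine receptors, was at 282 TPM in replicate 3, against 298 to 301 TPM in the other libraries.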

How the results depend on the processing

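No level, ratio or count listed here changed direction under any alternative tried, though the order of some members turned. Il1rap stood above Il18rap with transcript length and in mean log2 CPM. Without length, by mean log2 CPM, both also stood above Il1a, and Il1rl1 stood above Il1r2. Leaving out each replicate moved the log2 ratio of Il1r1 to Il1r2 between 5.71 and 5.81, to Il1rap between 3.37 and 3.45, to Sigirr between 0.90 and 0.91, to Il1rl1 between 7.16 and 7.31 and to Il23r between 1.03 and 1.06, that of Il18r1 to Il18rap between -1.27 and -1.15 and to Il1r1 between -4.12 and -3.99, and that of Il1rn to Il1a between 1.37 and 1.49. With a pseudocount of 1 TPM, the log2 ratio of Il1r1 was 4.98 to Il1r2, 3.22 to Il1rap and 5.64 to Il1rl1 (7.57 with 0.01 TPM), and that of Il18r1 to Il1r1 was -3.79. In CPM, without length, the log2 ratio of Il1r1 was 7.41 to Il1r2, 2.57 to Il1rap, 1.97 to Sigirr and 2.40 to Il23r, that of Il18r1 was -1.68 to Il18rap and -4.47 to Il1r1, and that of Il1rn to Il1a was 2.90. With the longest protein-coding transcript as length, the log2 ratio of Il1r1 was 5.46 to Il1r2, 2.20 to Il1rap, 0.42 to Sigirr, 6.97 to Il1rl1 and 1.18 to Il23r, that of Il18r1 to Il18rap was -1.44, and that of Il1rn to Il1a was 2.57. The count of variable genes, 216, was 18 by the negative binomial test with the 2-fold ratio and 65 without it, 4550 by the Poisson test without the ratio, 10 at DESeq2's fitted dispersion trend with the ratio, 1097 with no filter on low counts, and 141 to 156 when a replicate was left out. The count of variable members was 1 and 5 in the tests without the ratio (negative binomial and Poisson) and 0 when any replicate was left out with the ratio kept, and 9 members were detected whichever replicate was left out. No paired contrast between groups was possible because the 4 libraries form a single group, while the 8 gene pairs were compared within each library. Depth limits Il1r2 and Il1rl1, with 18 to 41 counts a library. For them no difference between libraries beyond counting error was detected. Il1b, Il18 and Il33, with 0 to 7 counts a library, did not pass the filter on low counts and were not tested.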
